A study of Mus musculus with 6 samples.

Results

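The 28 genes described here encode enzymes of cholesterol and fatty acid synthesis, together with the factors that switch them on in low sterol. They were chosen by name, with earlier results of these data known: 17 enzymes of cholesterol synthesis, 5 genes of sterol regulation and transport, and 6 genes of fatty acid synthesis. Their RNA was measured in 6 stable lines of ZHBTc4 mouse embryonic stem cells, in which the resident Oct4 genes are disrupted and an Oct4 transgene is shut off by tetracycline. The rescuing protein was of coelacanth or mouse origin: LcPOU5F1 (clones 4 and 5), LcPOU5F3 (clones 1 and 2) and mOct4 (clones 1 and 2). Each line grew from a single picked colony, so each clone is 1 sample and every group holds 2. Every group carried the same type of plasmid, a CAG-promoter construct selected with puromycin at 1 µg/mL, and was kept with tetracycline at 2 µg/mL in medium with LIF and 10% fetal bovine serum. RNA from each line was hybridised to a 1-colour Agilent array.

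All 28 genes had a probe (39 probes in total, and more than 1 probe for 10 genes). Probes were tested if both clones of some group gave a signal well above background, and 27 of the 28 genes were among the 14582 genes tested. Of these, 26 were well above background on all 6 arrays. Srebf1 was so on 5 arrays, including 1 of the 2 LcPOU5F1 arrays. The single probe of Sc5d, the sterol desaturase, was flagged as an outlying spot on the LcPOU5F3 clone 1 array and was not tested. Its log2 level was 0.94 and 1.23 in the LcPOU5F1 clones, 1.76 in LcPOU5F3 clone 2, and 0.86 and 0.89 in the mOct4 clones. Levels are given as log2 of the processed signal minus the 75th percentile of the same array, so a difference of 1 is a doubling, and levels of different probes are not compared with each other.

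Cholesterol is built from acetyl-CoA by way of mevalonate, farnesyl diphosphate, squalene and lanosterol. When membrane sterol is low, the escort protein SCAP carries SREBP transcription factors from the endoplasmic reticulum to the Golgi, where proteases release their active part. SREBP1, the product of Srebf1, acts mostly on fatty acid genes, and SREBP2, the product of Srebf2, mostly on cholesterol genes. INSIG proteins hold SCAP back when sterol is plentiful, and Insig1 is itself a target of SREBPs. SREBPs act on promoters together with the factors NF-Y and SP1. The genes therefore often move as a group in cultured cells, where serum lipid is one source of sterol.

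The promoters are shown because the genes have this control in common. RefSeq (GRCm38.p6) start sites gave a promoter for 22 of the 28 genes, and the 250 bases before the start were searched on both strands for TCACNCCAC (a sterol regulatory element), CCAAT (the NF-Y site), CACGTG (an E-box) and GGGCGG (an SP1 site). CCAAT was found for 18 of the 22 genes (81.8%), against 37.5% of all 27025 genes with a promoter in the table. GGGCGG was also found for 18 of 22 (81.8%), against 35.4% of all genes. CACGTG was found for 5 of 22 (22.7%, against 6.86%) and TCACNCCAC for 1 of 22 (4.55%, against 1.22%). These shares describe the sequence only and were not matched for base composition. The promoters of 4 genes that differed between the LcPOU5F3 clones by more than 1.6-fold (Hmgcs1, Mvd, Insig1 and Fasn) and of 2 that differed little (Mvk and Elovl6) are printed from 5′ to 3′ on the strand of the gene. Capitals mark matches on either strand to the sterol element, CCAAT and CACGTG.
Hmgcs1, chr13:119690101-119690350, plus strand: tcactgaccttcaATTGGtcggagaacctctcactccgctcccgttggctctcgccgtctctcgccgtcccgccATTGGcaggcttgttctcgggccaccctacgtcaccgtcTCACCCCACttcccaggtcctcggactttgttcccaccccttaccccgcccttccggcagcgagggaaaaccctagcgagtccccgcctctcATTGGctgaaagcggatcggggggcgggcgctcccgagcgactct
Mvd, chr8:122443423-122443672, minus strand: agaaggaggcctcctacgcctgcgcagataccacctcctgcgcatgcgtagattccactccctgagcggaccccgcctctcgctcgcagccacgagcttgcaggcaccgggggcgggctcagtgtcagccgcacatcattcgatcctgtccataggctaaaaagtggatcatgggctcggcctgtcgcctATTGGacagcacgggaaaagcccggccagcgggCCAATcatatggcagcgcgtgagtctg
Insig1, chr5:28071162-28071411, plus strand: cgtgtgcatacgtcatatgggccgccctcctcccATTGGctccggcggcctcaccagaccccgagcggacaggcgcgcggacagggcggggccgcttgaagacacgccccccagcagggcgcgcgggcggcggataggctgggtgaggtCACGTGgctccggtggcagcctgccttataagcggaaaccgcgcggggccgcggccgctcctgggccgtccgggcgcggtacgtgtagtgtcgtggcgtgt
Fasn, chr11:120824548-120824797, minus strand: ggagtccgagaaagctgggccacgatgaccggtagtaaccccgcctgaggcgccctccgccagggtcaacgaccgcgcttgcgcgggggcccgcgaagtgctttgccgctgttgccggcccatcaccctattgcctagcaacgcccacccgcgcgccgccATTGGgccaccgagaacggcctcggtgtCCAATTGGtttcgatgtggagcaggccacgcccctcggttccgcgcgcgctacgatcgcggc
Mvk, chr5:114444019-114444268, plus strand: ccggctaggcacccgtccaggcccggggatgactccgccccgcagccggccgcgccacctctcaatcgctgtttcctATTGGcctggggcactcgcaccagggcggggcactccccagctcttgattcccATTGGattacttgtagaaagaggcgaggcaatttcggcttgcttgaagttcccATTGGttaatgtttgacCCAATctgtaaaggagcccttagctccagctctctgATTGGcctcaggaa
Elovl6, chr3:129532136-129532385, plus strand: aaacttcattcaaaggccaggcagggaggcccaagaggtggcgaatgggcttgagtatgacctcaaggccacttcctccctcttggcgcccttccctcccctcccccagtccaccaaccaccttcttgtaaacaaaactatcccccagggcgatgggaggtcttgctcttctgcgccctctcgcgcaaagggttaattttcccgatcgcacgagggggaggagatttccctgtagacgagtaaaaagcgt
The sterol element of Hmgcs1 began 137 bases before the start and had CCAAT matches on both sides, at 176 and 45 bases. Mvk had 5 CCAAT matches in its window, and Fasn had 3, of which those at 62 and 59 bases overlap as CCAATTGG. Elovl6 had no match to any of the 4 motifs in this window.

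The groups differed widely in other genes. Against mOct4, 1724 genes were higher and 1710 lower in LcPOU5F3 lines (23.5% of 14582 genes), and 5 genes differed in LcPOU5F1 lines (0.0343%), at a Benjamini-Hochberg adjusted p under 0.05 in limma. The count of 5 depended on the processing. It was 749 with arrays centred on their median, 513 with only the 4 arrays compared, and 0 with no filter on dim probes. Summed signals of 8 stem cell markers, in units of each array's 75th percentile, were 343.9 and 420.1 in the LcPOU5F1 clones, 107 and 56.1 in the LcPOU5F3 clones, and 385.4 and 410.4 in the mOct4 clones. Those of the 9 trophectoderm markers tested, of 10 listed, were 32.5 and 23.6, 524 and 548.8, and 35.3 and 36.0 in the same order of groups. The largest term of the LcPOU5F3 sums was Krt18, at log2 levels of 8.56 and 8.60. In LcPOU5F3 against mOct4, 6 of the 9 were called higher and Eomes lower (-2.02, adjusted p = 0.0239 in limma). Hand1 (-0.02) and Tfap2c (0.05) were not called, and Elf5 was well above background on no array. The part of these markers in the lipid genes was not tested, and in bulk RNA fewer cells of a type and less RNA per cell cannot be told apart. The probe for Pou5f1, the symbol of mouse Oct4, was well above background only on the mOct4 arrays, at least 1.90-fold over LcPOU5F1 (adjusted p = 0.262 in limma) and at least 2.89-fold over LcPOU5F3 (adjusted p = 0.0701).

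Markers of other cell types also differed, and their part in the lipid genes was not tested either. The 7 mesenchyme markers tested, of 8 listed, summed to 1.78 and 1.78 in LcPOU5F1, 32.0 and 62.1 in LcPOU5F3, and 3.10 and 2.87 in mOct4 clones. Most of the LcPOU5F3 sum was Tagln, a smooth muscle actin-binding protein, at 26.8 and 57.6. The other 6 summed to 1.21 and 1.21 in LcPOU5F1, 5.22 and 4.48 in LcPOU5F3, and 2.34 and 2.05 in mOct4 clones. In LcPOU5F3 against mOct4, Tagln, Thy1 and Dcn rose, Pdgfrb fell (-0.63, adjusted p = 0.0406 in limma), and Col1a1 (-0.80), Col1a2 (-0.45) and Col3a1 (0.72) did not pass the test. The call of Pdgfrb was lost in each of the 6 fits that left out 1 clone, and its difference was -0.21 with normexp background correction. The 4 endoderm markers tested, of 10 listed, summed to 1.39 and 0.97 in LcPOU5F1, 1.65 and 2.67 in LcPOU5F3, and 0.43 and 0.36 in mOct4 clones. Dab2 was at least 20.1-fold higher in LcPOU5F3 than in mOct4 (adjusted p = 0.00707 in limma), and Cubn at least 5.57-fold higher in LcPOU5F1 than in mOct4 (adjusted p = 0.0345). Gata4 and Sox17 were not called in either group against mOct4, and Afp, Apoa1, Apob and Ttr were well above background on no array. Of the 6 adipocyte markers, Adipoq, Fabp4 and Cfd were well above background on no array, and Plin1 and Lpl were not called in any comparison. Pparg, a nuclear receptor of fat cell genes, rose by 1.76 ± 0.40 in LcPOU5F3 against mOct4 (adjusted p = 0.0363 in limma), with 0.14 and -1.07 in LcPOU5F3 and -2.31 and -2.13 in mOct4 clones. The 3 adipocyte markers tested summed to 1.11 and 1.77 in LcPOU5F1, 2.23 and 1.06 in LcPOU5F3, and 1.15 and 1.32 in mOct4 clones. Of these calls against mOct4, those of Tagln, Thy1, Dab2, Cubn and Pparg were lost without either mOct4 clone, and that of Dcn without mOct4 clone 1. Those of Cubn and Pparg were also lost without either LcPOU5F1 clone. With normexp background correction, the log2 differences stayed past the threshold and were 2.69 for Dab2, 1.61 for Dcn and 1.09 for Pparg in LcPOU5F3 and 1.28 for Cubn in LcPOU5F1. Without an LcPOU5F3 clone, the Pparg difference was 1.16 (clone 1 left out) or 2.36 (clone 2 left out).

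Against this background, no tested gene of the 28 was called between the groups. None of the 27 tested genes passed the adjusted p of 0.05 in limma in LcPOU5F3 against mOct4 (23.5% of all genes did), in LcPOU5F1 against mOct4 (0.0343%) or in LcPOU5F1 against LcPOU5F3 (20.7%). At an unadjusted p under 0.05 the counts were 4, 3 and 2 of 27, against 5869, 2279 and 5756 of 14582 genes. The median log2 difference of the 27 genes from mOct4 was -0.08 in LcPOU5F3 (all genes -0.09) and 0.18 in LcPOU5F1 (all genes 0.10). Between LcPOU5F1 and LcPOU5F3 it was 0.19 (all genes 0.21). The median size of the difference, whatever its sign, was 0.29 in LcPOU5F3 against mOct4, where it was 0.44 over all genes. It was 0.22 in LcPOU5F1 against mOct4 (all genes 0.27) and 0.27 in LcPOU5F1 against LcPOU5F3 (all genes 0.47).

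The clones of the groups compared did not overlap for 12 of 27 genes in LcPOU5F3 against mOct4 (6 higher, 6 lower), against 68.4% of all genes. They did not overlap for 16 in LcPOU5F1 against mOct4 (12 higher, 4 lower), against 60.7%, and for 9 in LcPOU5F1 against LcPOU5F3 (8 higher, 1 lower), against 65.2%. All 3 counts are smaller shares than those of all genes, the second by little.

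How large a difference was not excluded is given by the 95% intervals of limma. The interval lay within 2-fold either way for 17 of 27 genes in LcPOU5F3 against mOct4, against 45.1% of all genes. The counts were 20 of 27 in LcPOU5F1 against mOct4 (60% of all genes) and 18 of 27 in LcPOU5F1 against LcPOU5F3 (44.7%). For the other genes a difference of more than 2-fold was not excluded. The widest intervals were those of Scd1, which reached from -2.09 to 0.67 in LcPOU5F3 against mOct4. Of these 27 genes, the number called depended most on LcPOU5F3 clone 1 among the single clones left out. Without it, 7 of the 27 genes were called lower in LcPOU5F3 than in mOct4 (19% of all genes) and 9 were called higher in LcPOU5F1 than in LcPOU5F3 (24.9% of all genes). Without LcPOU5F3 clone 2, Scd2 alone was called, higher in LcPOU5F3 than in mOct4 (10.8% of all genes). Among changes of processing with all clones kept, the highest counts were reached with normexp background correction. They were 3 of 27 in LcPOU5F3 against mOct4 (4332 of 14582 genes) and 2 of 27 in LcPOU5F1 against LcPOU5F3. Without that correction, 3012 of 14582 genes were called in LcPOU5F1 against LcPOU5F3. In the fits without a clone, the lone LcPOU5F3 clone is assumed to vary like the other groups.

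**Figure D1:**
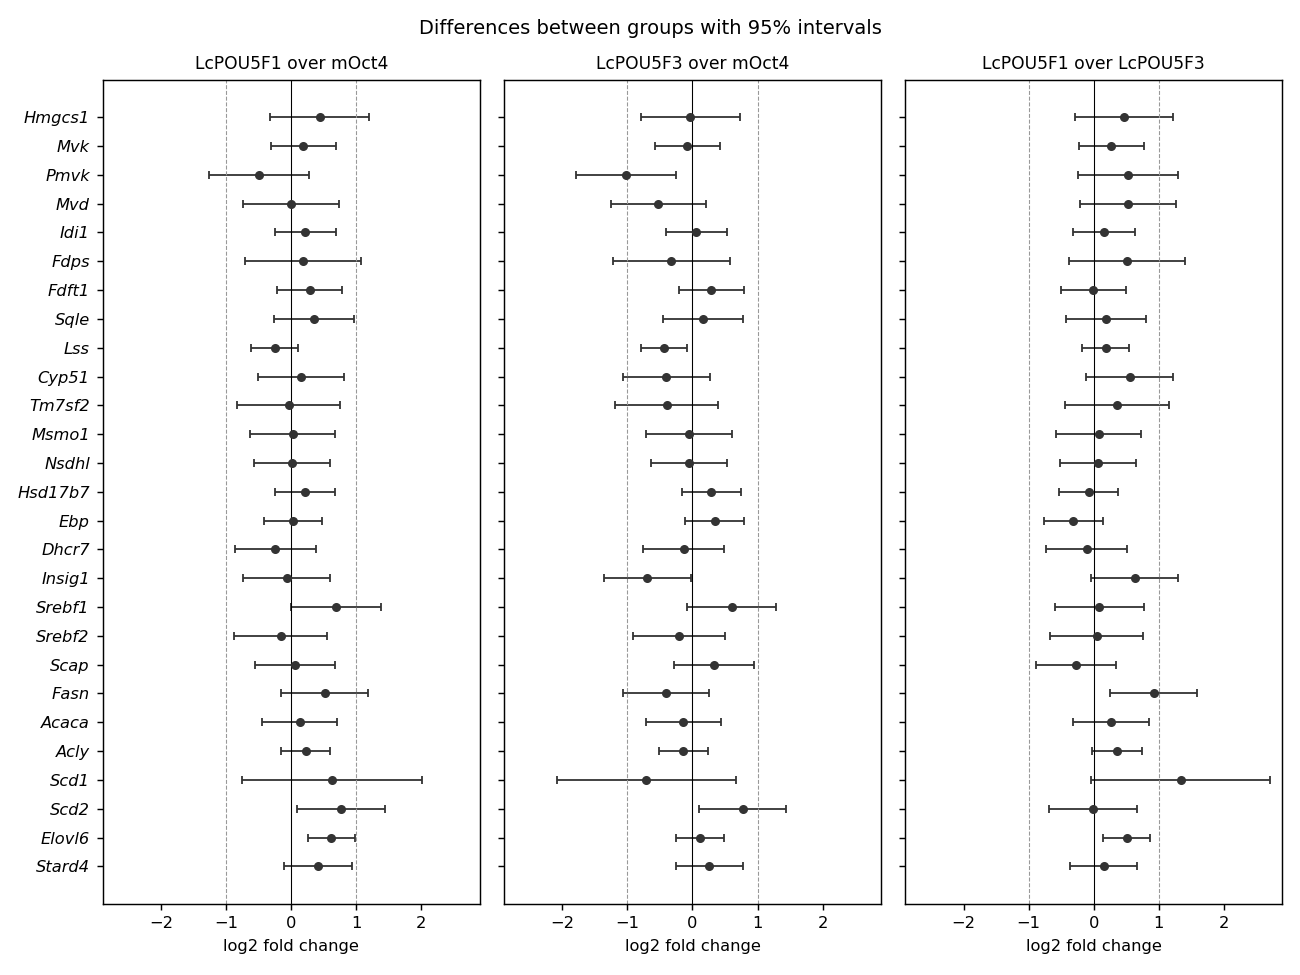
Log2 fold change of the 27 tested genes with 95% intervals from limma (n = 2 clones per group), for LcPOU5F1 over mOct4, LcPOU5F3 over mOct4 and LcPOU5F1 over LcPOU5F3; dashed lines mark 2-fold. Most intervals include 0, and those of Scd1 are the widest.

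The enzymes from HMG-CoA synthase to squalene synthase had no common direction in LcPOU5F3 against mOct4: 2 of 7 were above 0 and 5 below, with a median of -0.08. Hmgcs1, the cytosolic HMG-CoA synthase, measured 5.03 and 5.38 in LcPOU5F1, 5.13 and 4.35 in LcPOU5F3, and 4.80 and 4.74 in mOct4 clones. Both LcPOU5F1 clones were above both mOct4 clones, and the LcPOU5F3 clones lay on either side of them. Its log2 difference was 0.44 ± 0.30 (SE) in LcPOU5F1 against mOct4 (adjusted p = 0.506 in limma). Fdps, which makes farnesyl diphosphate, measured 5.21 and 5.31 in LcPOU5F1, 5.27 and 4.23 in LcPOU5F3, and 5.07 and 5.08 in mOct4 clones. Only LcPOU5F3 clone 2 stood apart. Mvd, the diphosphomevalonate decarboxylase, showed the same order of LcPOU5F3 clones, at 2.66 and 2.40 in LcPOU5F1, 2.40 and 1.62 in LcPOU5F3, and 2.51 and 2.55 in mOct4.

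Pmvk, the phosphomevalonate kinase, was the gene of the pathway closest to the threshold in LcPOU5F3 against mOct4. It measured 4.82 and 5.15 in LcPOU5F1, 4.86 and 4.06 in LcPOU5F3, and 5.42 and 5.54 in mOct4 clones. All 4 coelacanth clones were below both mOct4 clones, and LcPOU5F1 and LcPOU5F3 clones overlapped. The log2 difference from mOct4 was -1.02 ± 0.30 in LcPOU5F3 (adjusted p = 0.0653 in limma, 95% interval -1.79 to -0.26) and -0.50 ± 0.30 in LcPOU5F1 (adjusted p = 0.462). A second Pmvk probe gave -1.14 in LcPOU5F3 and -0.57 in LcPOU5F1 against mOct4. The remaining enzymes of this stretch varied less. Mvk (mevalonate kinase), Idi1 (isopentenyl-diphosphate isomerase) and Fdft1 (squalene synthase) had differences between -0.08 and 0.29 in LcPOU5F3 and between 0.18 and 0.28 in LcPOU5F1 against mOct4, all with an adjusted p over 0.05.

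The enzymes from squalene to cholesterol had medians near 0, of -0.05 in LcPOU5F3 and 0.02 in LcPOU5F1 against mOct4 over 9 tested genes. Lss, which closes squalene epoxide to lanosterol, had a small spread between clones. It measured 1.07 and 1.06 in LcPOU5F1, 0.96 and 0.80 in LcPOU5F3, and 1.32 and 1.32 in mOct4 clones. The 3 groups did not overlap, with LcPOU5F3 lowest and mOct4 highest. Its difference from mOct4 was -0.44 ± 0.14 in LcPOU5F3 (adjusted p = 0.0808) and -0.25 ± 0.14 in LcPOU5F1 (adjusted p = 0.432 in limma). Cyp51, the lanosterol demethylase, measured 0.37 and 0.59 in LcPOU5F1, 0.27 and -0.42 in LcPOU5F3, and 0.29 and 0.37 in mOct4. Its LcPOU5F3 clones were below those of both other groups, clone 1 only slightly.

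Ebp, the sterol isomerase, went the other way. It measured 4.20 and 4.30 in LcPOU5F1, 4.45 and 4.67 in LcPOU5F3, and 4.08 and 4.37 in mOct4 clones. Both LcPOU5F3 clones lay above all others, with a difference from mOct4 of 0.34 ± 0.18 (adjusted p = 0.216 in limma). Sqle (squalene epoxidase), Tm7sf2 (a sterol reductase), Msmo1, Nsdhl and Hsd17b7 (which remove methyl groups from the sterol ring) and Dhcr7 (a reductase of the last steps) had differences from mOct4 between -0.40 and 0.29 in LcPOU5F3 and between -0.25 and 0.35 in LcPOU5F1. Their adjusted p ranged upward from 0.288. Across all 16 tested cholesterol enzymes, clones of LcPOU5F3 and mOct4 did not overlap for 6 (2 higher, 4 lower), beside 68.4% of all genes.

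**Figure D2:**
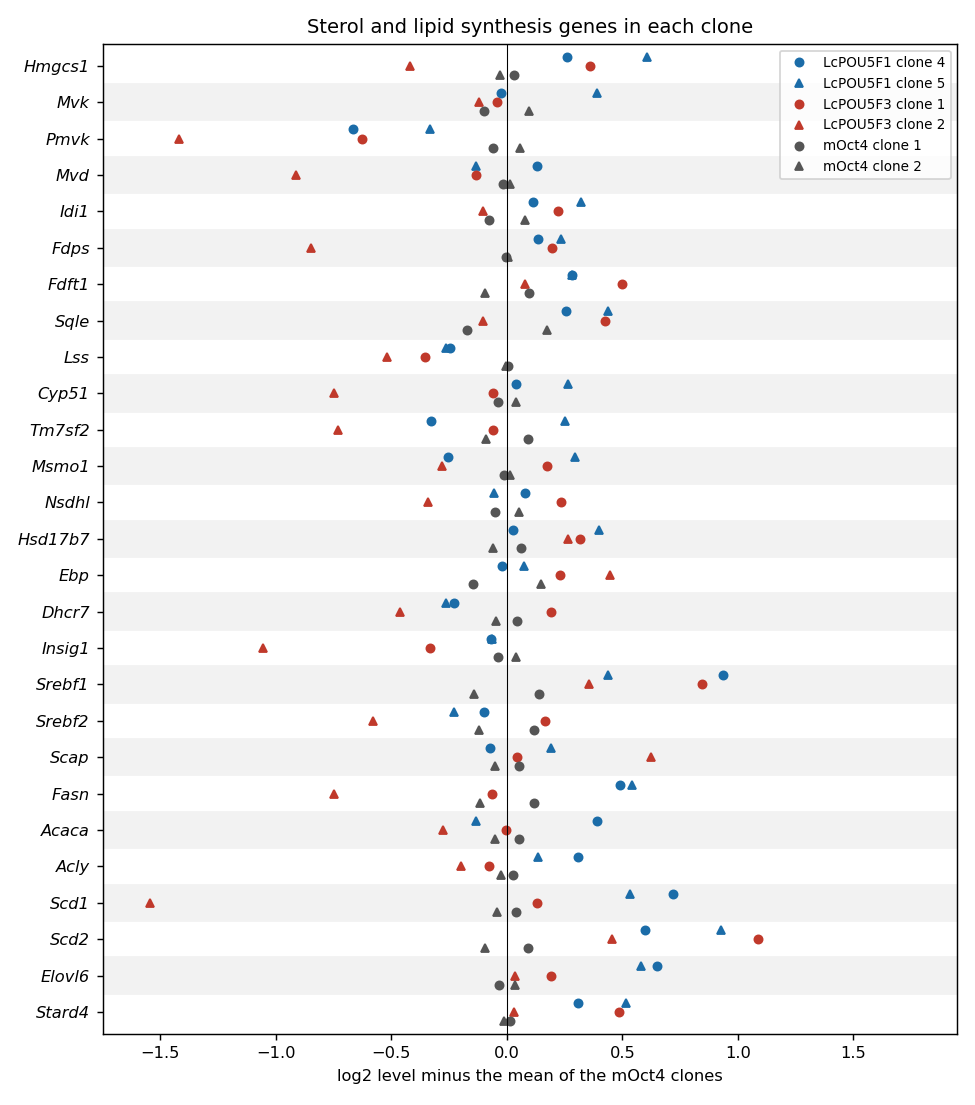
Log2 level of each of the 27 tested genes in each clone, minus the mean of the mOct4 clones; blue marks LcPOU5F1, red LcPOU5F3 and grey mOct4 clones, with circles and triangles for the lower and higher clone number. LcPOU5F3 clone 2 (red triangles) lies to the left of LcPOU5F3 clone 1 (red circles) for 25 of 27 genes.

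Among the regulators, Srebf2 and Scap had log2 differences from mOct4 of -0.16 and 0.06 in LcPOU5F1 and of -0.21 and 0.33 in LcPOU5F3, none past the threshold. Srebf2 measured 0.89 and 0.76 in LcPOU5F1, 1.15 and 0.41 in LcPOU5F3, and 1.1 and 0.87 in mOct4 clones. The LcPOU5F3 clones spanned all the others. Scap measured 3.55 and 3.81 in LcPOU5F1, 3.67 and 4.25 in LcPOU5F3, and 3.67 and 3.57 in mOct4, and here LcPOU5F3 clone 2 was the highest sample. Insig1 was level in LcPOU5F1 (-0.50 and -0.50) beside mOct4 (-0.47 and -0.40), and lower in LcPOU5F3 (-0.77 and -1.49). Both LcPOU5F3 clones were below all other samples. The difference was -0.69 ± 0.26 in LcPOU5F3 against mOct4 (adjusted p = 0.115) and 0.63 ± 0.26 in LcPOU5F1 against LcPOU5F3 (adjusted p = 0.145 in limma).

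Srebf1, by contrast, had its lowest values in mOct4. It measured -1.89 and -2.39 in LcPOU5F1, -1.98 and -2.47 in LcPOU5F3, and -2.69 and -2.97 in mOct4 clones. All coelacanth clones lay above both mOct4 clones, by 0.69 ± 0.27 in LcPOU5F1 (adjusted p = 0.32) and 0.60 ± 0.27 in LcPOU5F3 (adjusted p = 0.163 in limma). Its signal was near background, and 1 LcPOU5F1 array did not measure it well above background. The lowest well-measured level was -2.69 and -2.39 on LcPOU5F1, -2.37 and -3.91 on LcPOU5F3, and -3.79 and -3.59 on mOct4 arrays. Its part in the Srebf1 difference was not tested. Among settings that left out no clone, the smallest Srebf1 difference from mOct4 was 0.16 in LcPOU5F1 and 0.27 in LcPOU5F3. Stard4, a carrier of sterol through the cytosol, measured 2.07 and 2.28 in LcPOU5F1, 2.25 and 1.80 in LcPOU5F3, and 1.78 and 1.75 in mOct4. The 4 coelacanth clones were again above both mOct4 clones, by 0.41 ± 0.20 in LcPOU5F1 (adjusted p = 0.394) and 0.26 ± 0.20 in LcPOU5F3 (adjusted p = 0.396 in limma). A second, dimmer Stard4 probe gave -0.12 in LcPOU5F1 and 0.15 in LcPOU5F3 against mOct4, so the probes disagree in sign for LcPOU5F1.

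Fatty acid synthesis genes were on the high side in LcPOU5F1, though none passed the test. All 6 had a log2 difference above 0 against mOct4, as did 8843 of 14582 genes. The median of the 6 was 0.57 beside 0.10 over all genes, and 4 of the 6 were above 0 when arrays were centred on their median. All 6 also lay above the median of all genes with quantile normalization and with normexp background correction. Median centring and the series matrix shift all genes of an array alike, the latter apart from rounding. The order against that median could therefore not change there. The clones of LcPOU5F1 were above both mOct4 clones for 5 of the 6, a pattern found in 38.8% of all genes. The 19 tested fatty acid and glycerolipid genes outside the members had no such lean in LcPOU5F1 against mOct4. Of these, 9 were above 0 and 10 below, with a median of -0.02. In LcPOU5F3 against mOct4, 2 of the 6 were above 0 and the median was -0.14. Between LcPOU5F1 and LcPOU5F3, 5 of the 6 were above 0 (3 with median centring) and the median was 0.43, beside 0.21 over all genes.

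Elovl6, the elongase that makes stearate from palmitate, had close clones. It measured 4.79 and 4.72 in LcPOU5F1, 4.32 and 4.17 in LcPOU5F3, and 4.10 and 4.17 in mOct4. The LcPOU5F1 clones were above all others, by 0.62 ± 0.14 over mOct4 (adjusted p = 0.194) and by 0.50 ± 0.14 over LcPOU5F3 (adjusted p = 0.0642 in limma). Fasn, the fatty acid synthase, measured 0.11 and 0.16 in LcPOU5F1, -0.44 and -1.13 in LcPOU5F3, and -0.26 and -0.50 in mOct4. The LcPOU5F1 clones again lay above all others, by 0.92 ± 0.26 over LcPOU5F3 (adjusted p = 0.0638) and by 0.51 ± 0.26 over mOct4 (adjusted p = 0.402 in limma).

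The stearoyl-CoA desaturases Scd1 and Scd2, which put the double bond into stearate and palmitate, differed from each other in pattern. Scd1 measured 1.70 and 1.51 in LcPOU5F1, 1.11 and -0.57 in LcPOU5F3, and 1.02 and 0.94 in mOct4. LcPOU5F1 was highest, LcPOU5F3 clone 1 was next to the mOct4 clones and LcPOU5F3 clone 2 was far below them. Scd2 measured 5.22 and 5.55 in LcPOU5F1, 5.71 and 5.08 in LcPOU5F3, and 4.71 and 4.53 in mOct4. All 4 coelacanth clones were above both mOct4 clones, by 0.76 ± 0.26 in LcPOU5F1 (adjusted p = 0.284) and 0.77 ± 0.26 in LcPOU5F3 (adjusted p = 0.0913 in limma). The Scd1 difference was 1.33 ± 0.54 in LcPOU5F1 against LcPOU5F3 (adjusted p = 0.136) and -0.71 ± 0.54 in LcPOU5F3 against mOct4 (adjusted p = 0.382). Scd1 and Scd2 are close relatives, and what their probes share in sequence was not examined.

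Acly, which makes cytosolic acetyl-CoA from citrate, measured 5.32 and 5.15 in LcPOU5F1, 4.94 and 4.82 in LcPOU5F3, and 5.04 and 4.99 in mOct4. The groups did not overlap, and the difference was 0.36 ± 0.15 in LcPOU5F1 against LcPOU5F3 (adjusted p = 0.142 in limma). Acaca, the acetyl-CoA carboxylase that makes malonyl-CoA, overlapped in all comparisons, at 3.60 and 3.08 in LcPOU5F1, 3.21 and 2.94 in LcPOU5F3, and 3.26 and 3.16 in mOct4. Both of its dimmer probes gave -0.24 and -0.34 in LcPOU5F1 against mOct4, where the probe used gave 0.13, so their signs disagree.

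**Figure D3:**
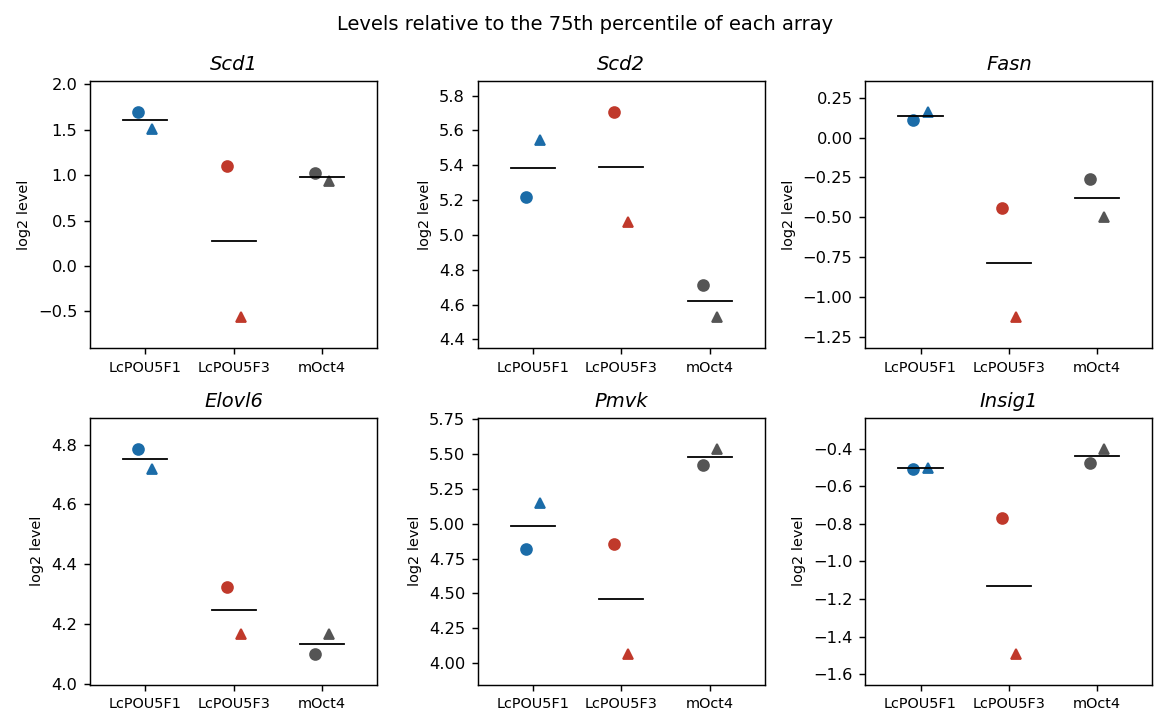
Log2 level, relative to each array's 75th percentile, of 6 genes in LcPOU5F1, LcPOU5F3 and mOct4 clones; circles and triangles are the lower and higher clone number and the line is the mean of both. Elovl6 and Fasn are highest in both LcPOU5F1 clones, Pmvk is highest in both mOct4 clones, and the LcPOU5F3 clones lie far apart for Scd1, Pmvk and Insig1.

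A wide difference in these genes lay within a group, between the LcPOU5F3 clones. In clone 2, 25 of the 27 genes were below clone 1, with a median log2 difference of -0.52. Over all 14582 genes the median was -0.06 and 8056 were below 0. Among the 8377 genes whose mean level was above the 75th percentile, it was 0.03. A difference below -0.5 was found for 14 of the 27 (51.9%), against 23.5% of all genes and 8.32% of those 8377 genes. The lower values in clone 2 covered each branch: 15 of 16 cholesterol enzymes (median -0.55), 4 of 5 regulators and transport genes (median -0.49) and 6 of 6 fatty acid genes (median -0.45).

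Scd1 had the largest clone difference of the 27 genes at -1.67, which is 3.19-fold, followed by Fdps at -1.04 or 2.06-fold. Pmvk, Mvd, Hmgcs1, Srebf2 and Insig1 lay between -0.79 and -0.73, and Cyp51, Fasn, Tm7sf2, Dhcr7 and Scd2 between -0.69 and -0.63. Small differences were seen for Mvk (-0.08), Hsd17b7 (-0.05), Acly (-0.12), Elovl6 (-0.15) and Lss (-0.16). The exceptions were Scap at 0.58 and Ebp at 0.22. Of 10 further probes of these genes, 6 were lower in clone 2 (Mvk, Pmvk, Tm7sf2, Hsd17b7, Srebf2 and Acly). Among these 6, the second probes of Pmvk, Tm7sf2 and Srebf2 had the largest differences, with levels of 3.10, -0.61 and -2.14 in clone 2 and of 3.84, 0.15 and -1.30 in clone 1. The other 4 were higher in clone 2, by log2 differences of 0.04 for Nsdhl, 0.21 for Stard4, and 0.80 and 0.99 for a pair of Acaca probes that were well above background on 3 of the 6 arrays. Among the brightest genes, those with a mean level above 2, the median was -0.44 for 16 members and 0.01 for all 4794 such genes.

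The same comparison in the other groups gave no such shift. LcPOU5F1 clone 5 minus clone 4 had a median of 0.09 with 11 of 27 genes below 0 (all genes -0.02), and mOct4 clone 2 minus clone 1 had a median of -0.02 with 15 of 27 below 0 (all genes -0.01). Each clone is 1 array, so a difference between clones of a group has no replicate and no test. The LcPOU5F3 clone 2 array had 53.3% of probes well above background and a lowest well-measured signal of 27.8, while the clone 1 array had 43.4% and 91.5. Stem cell markers summed to 56.1 in clone 2 and 107 in clone 1, and mesenchyme markers to 62.1 and 32.0. Without Tagln, mesenchyme markers summed to 4.48 in clone 2 and 5.22 in clone 1. Endoderm markers summed to 2.67 and 1.65, and adipocyte markers to 1.06 and 2.23, in clone 2 and clone 1. Their part in the clone difference was not tested. The direction held with quantile normalization (median -0.53), normexp background correction (-0.44) and the deposited series matrix (-0.50), and turned to 0.30 with median centring, where the median of all genes was 0.77.

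**Figure D4:**
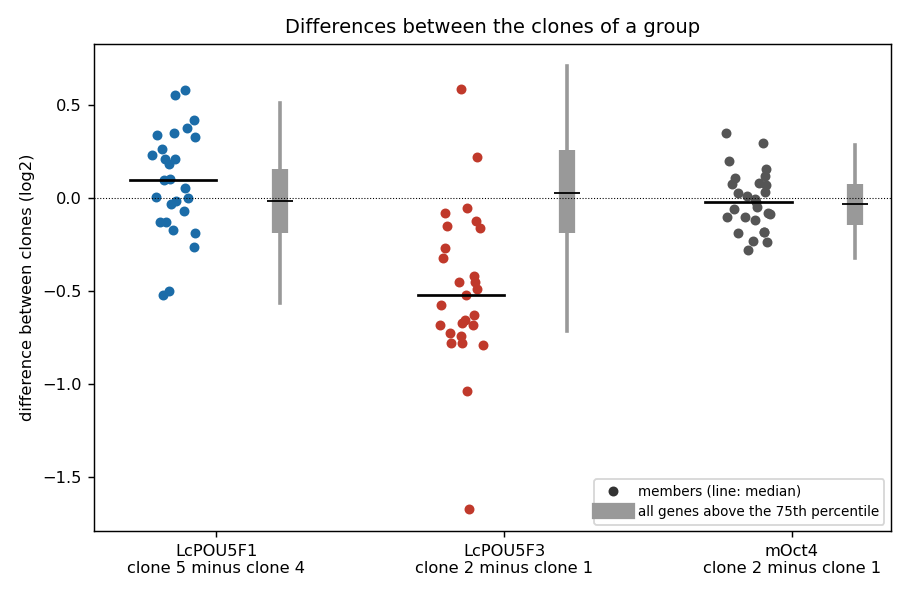
Log2 difference between the clones of each group: points are the 27 tested genes with their median as a black line, and grey bars show the 25th to 75th percentile (thick) and the 5th to 95th percentile (thin) of the 8377 genes with a mean level above the 75th percentile. The points of LcPOU5F3 centre on -0.52, while those of LcPOU5F1 and mOct4 centre on 0.09 and -0.02.

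Genes around the pathway were read from lists of named genes. Of 16 sterol genes outside the members, which serve synthesis, uptake and SREBP processing, 1 rose and 2 fell in LcPOU5F3 against mOct4 (18.8%, beside 23.5% of all genes), and none was called in the other comparisons. Insig2, a second INSIG protein that holds SCAP back, rose by 0.69 ± 0.16 (adjusted p = 0.0391 in limma), with 2.27 and 2.49 in LcPOU5F3 and 1.74 and 1.63 in mOct4 clones. Insig1 had a difference of -0.69 in the same comparison without passing the test. Mbtps2, the site-2 protease that completes SREBP cleavage, fell by 0.79 ± 0.16 (adjusted p = 0.026 in limma), with -1.65 and -1.58 in LcPOU5F3 and -0.94 and -0.69 in mOct4. With normexp background correction its difference was -0.42 (adjusted p = 0.0726 in limma). Npc2, which hands cholesterol out of lysosomes, fell by 0.61 ± 0.14 (adjusted p = 0.0351), with 3.21 and 3.18 in LcPOU5F3 and 3.82 and 3.79 in mOct4.

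The isoprenoid branch, which uses farnesyl diphosphate for prenylation, dolichol and ubiquinone, had 10 of 10 genes tested. None was called in LcPOU5F3 or LcPOU5F1 against mOct4. Pdss1, which starts the ubiquinone side chain, was 0.91 ± 0.18 higher in LcPOU5F1 than in LcPOU5F3 (adjusted p = 0.0294 in limma), at 1.29 and 1.17 in LcPOU5F1 and 0.50 and 0.14 in LcPOU5F3. It was the 1 gene of 10 called in that comparison, where 20.7% of all genes were, and with median centring its difference was 0.50 (adjusted p = 0.618 in limma).

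Fatty acid and glycerolipid genes outside the members were called in both directions. Of 19 tested, 3 rose and 4 fell in LcPOU5F3 against mOct4 (36.8%, beside 23.5% of all genes), none was called in LcPOU5F1 against mOct4, and 3 were higher and 2 lower in LcPOU5F1 than in LcPOU5F3 (26.3%, beside 20.7% of all genes). Whether these shares differ from those of all genes was not tested. Elovl1, an elongase of very long chains, rose by 2.08 ± 0.26 in LcPOU5F3 against mOct4 (adjusted p = 0.0103 in limma), with 4.95 and 5.64 in LcPOU5F3 and 3.14 and 3.28 in mOct4. Me1, the malic enzyme that makes NADPH for fatty acid synthesis, rose by 1.44 ± 0.18 (adjusted p = 0.0102), with 2.32 and 2.62 in LcPOU5F3 and 1.13 and 0.93 in mOct4. Acsl1, which activates long-chain fatty acids, fell by 1.60 ± 0.24 (adjusted p = 0.0151), with 1.65 and 1.06 in LcPOU5F3 and 3.10 and 2.81 in mOct4. Acacb, the carboxylase at the mitochondrion, was 2.31 ± 0.49 higher in LcPOU5F1 (1.27 and 1.46) than in LcPOU5F3 (-0.20 and -1.68), with an adjusted p of 0.0346 in limma.

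Of 14 genes of fatty acid oxidation tested, 2 rose and 3 fell in LcPOU5F3 against mOct4 (35.7%, beside 23.5% of all genes). Acadl, a dehydrogenase of long-chain acyl-CoA, rose by 1.55 ± 0.15 in LcPOU5F3 against mOct4 (adjusted p = 0.0071 in limma), with 1.57 and 1.76 in LcPOU5F3 and 0.20 and 0.03 in mOct4. Cpt1a, the carnitine transferase that lets fatty acids into mitochondria, fell by 1.30 ± 0.25 (adjusted p = 0.0245), with 1.69 and 1.52 in LcPOU5F3 and 3.03 and 2.78 in mOct4. None of the 14 was called in LcPOU5F1 against mOct4, and 3 were higher and 2 lower in LcPOU5F1 than in LcPOU5F3 (35.7%, beside 20.7% of all genes).

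Among 10 tested liver X receptor and cholesterol efflux genes, none was called against mOct4 in either coelacanth group, and 2 were higher in LcPOU5F1 than in LcPOU5F3 (20%, beside 20.7% of all genes). Both are ABC transporters that export cholesterol. Abcg1 was 2.07 ± 0.31 higher (adjusted p = 0.0164 in limma), at 2.43 and 2.19 in LcPOU5F1, 0.60 and -0.13 in LcPOU5F3, and 1.11 and 0.67 in mOct4. Abca1 was 1.28 ± 0.21 higher (adjusted p = 0.0199), at 2.61 and 3.00 in LcPOU5F1, 1.64 and 1.41 in LcPOU5F3, and 1.92 and 1.66 in mOct4. For both, the LcPOU5F1 clones lay above all other samples. The comparisons of LcPOU5F3 with mOct4 and of LcPOU5F1 with LcPOU5F3 share the LcPOU5F3 clones. All 11 calls of the named related genes in LcPOU5F3 against mOct4 were lost when either mOct4 clone was left out, as were 10 of the 11 in LcPOU5F1 against LcPOU5F3, and the genes called overall in LcPOU5F3 against mOct4 then numbered 36 and 46 in place of 3434.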

How the data were processed

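Per the file headers, the authors extracted spot intensity from 1-colour arrays with Agilent Feature Extraction 11.0.1.1 and deposited processed linear intensity, not scaled across arrays. Values of the series matrix matched them after rounding. The array design names build mm9. Here log2 of the processed intensity minus each array's 75th percentile was used, without control spots and outlier-flagged spots, with spots of a probe averaged. RefSeq names (GRCm38.p6) were matched by transcript accession: 27656 probes had 1 gene symbol and 28025 (50.3%) had none. The brightest kept probe stood for a gene. All 6 arrays were fitted with 3 group means in limma 3.58.1 (R 4.3.3, lmFit and eBayes, 3 residual and 5.16 moderated degrees of freedom), with Benjamini-Hochberg adjustment over 14582 genes. Scripts were tested on simulated data. The p-values measure the spread between picked clones, pooled for each gene over the 3 groups. Each comparison therefore also carries the clone spread of the group outside it. Over all genes, the median size of the log2 difference between clones was 0.33 in LcPOU5F3, 0.21 in LcPOU5F1 and 0.15 in mOct4. The 6 arrays limit the precision.

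The members, the related lists and the markers were chosen with earlier results of these data known. All members are named, and up to 3 genes of each related list with the smallest unadjusted p per comparison may be named. Alternatives were quantile normalization, median centring, normexp correction (offset 50, on median signals), the series matrix, other probe filters, an intensity trend, subsets of arrays, a slide block and a replicate block. Since mOct4 clone 2 was alone on its slide, blocking on slide drops that array from the comparison. Bounds marked "at least" set the mean of the bright group against the dim group's lowest well-measured signal.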

Additional observations from a re-analysis of the deposited data

Results flagged for a closer look

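The 11 results here are genes around the pathway, not members, for which the effect of LcPOU5F1 differed from that of LcPOU5F3 by a test of the difference itself in limma (2 clones each, adjusted over all 14582 genes). Higher in LcPOU5F1 than in LcPOU5F3, on the log2 scale, were Acacb by 2.31 (adjusted p = 0.0346), Abcg1 by 2.07 (0.0164), Acsl1 by 1.58 (0.0177), Cpt1a by 1.46 (0.0218), Cpt1b by 1.43 (0.0397), Abca1 by 1.28 (0.0199), Pdk4 by 1.25 (0.0204) and Pdss1 by 0.91 (0.0294). Lower were Elovl1 at -1.93 (0.0132), Acadl at -1.19 (0.0122) and Me1 at -0.76 (0.0408). Cpt1b was well above background on 1 of the 2 LcPOU5F3 arrays. When 1 clone at a time was left out, Cpt1b kept its call in 3 of 6 fits and each of the other 10 genes in 1 or 2 of 6. The other 10 lost it without either mOct4 clone, and Cpt1b without LcPOU5F3 clone 2 or either LcPOU5F1 clone. With normexp background correction Cpt1b had a difference of 0.45 (adjusted p = 0.138). With median centring Pdss1 had 0.50 (0.618) and Me1 -1.17 (0.0584).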

How the results depend on the processing

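Having 2 clones per group limits every statement, and the share of probes well above background (43.4% to 57.8%) limits what dim probes can show. Members called in LcPOU5F3 against mOct4 numbered 0, and 3 at an adjusted p under 0.10, 3 with normexp correction (Pmvk and Lss lower, Scd2 higher), 1 with probes well above background on all 6 arrays, 2 with an intensity trend, and 0 to 7 when 1 clone was left out, where the median of the members ran from -0.28 to 0.17. The 7 were lower without LcPOU5F3 clone 1 (Pmvk, Mvd, Fdps, Cyp51, Insig1, Fasn and Scd1). In LcPOU5F1 against LcPOU5F3 the count of 0 became 2 at 0.10, 2 with normexp correction (Fasn higher, Ebp lower), 2 with probes on all 6 arrays and 2 with the trend (Fasn and Elovl6 in both), and 0 to 9 when 1 clone was left out, with 9 higher without LcPOU5F3 clone 1 and a median of 0.02 to 0.40. It stayed at 0 in LcPOU5F1 against mOct4 in every setting, where the median of 0.18 became 0.053 with quantile normalization, -0.19 with median centring, 0.082 with normexp, 0.15 with the mean of all kept probes, and 0.11 to 0.26 when 1 clone was left out. Median centring gave -0.22 in LcPOU5F1 against LcPOU5F3 and turned the LcPOU5F3 clone difference to 0.30. It moved the median of all genes by -0.37 and -0.40 in the LcPOU5F1 comparisons with mOct4 and LcPOU5F3, so its members are best read against medians of -0.27 and -0.20 over all genes. Quantile normalization and normexp moved the median by -0.17 and -0.18 in LcPOU5F1 against LcPOU5F3, and no filter on dim probes moved it by 0.12 to 0.15 in the 3 comparisons. The cause of these changes was not tested. Fits with a clone left out also rest on fewer arrays, and the part of that was not tested either. Of the 27 members, 10 changed sign in some setting in LcPOU5F3 against mOct4, 15 in LcPOU5F1 against mOct4 and 18 in LcPOU5F1 against LcPOU5F3. None of these was called in the main fit of all 6 arrays.

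Over all genes, the 3434 calls in LcPOU5F3 against mOct4 became 5320 at 0.10, 530 at 0.01, 1544 with no filter, 2206 with the 4 arrays compared or without either LcPOU5F1 clone, 46 with the slide block, and 36 and 46 without mOct4 clones 1 and 2. The 5 calls in LcPOU5F1 against mOct4 became 43 at 0.10, 106 with quantile normalization, 749 with median centring, 172 with normexp, 29 with the trend, 513 with 4 arrays or without either LcPOU5F3 clone, and 0 at 0.01, with no filter, with probes on all 6 arrays, with the slide block or without any other clone. The 3012 in LcPOU5F1 against LcPOU5F3 became 4989 at 0.10, 431 at 0.01, 966 with no filter, 495 with 4 arrays, the slide block or without either mOct4 clone, 5845 and 1914 without LcPOU5F3 clones 1 and 2, and 691 and 471 without LcPOU5F1 clones 4 and 5. In LcPOU5F3 against mOct4, 4332 of 14582 genes were called with normexp correction and 4529 with the trend. With probes well above background on all 6 arrays, 3454 of 11611 genes were called. Clone numbers are shared by LcPOU5F3 and mOct4 but not known to pair them: same-numbered deviations correlated at -0.10. With the replicate block, 0 members and 0 genes were called, and the median of the members was -0.08.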
